A study of Mus musculus with 15 samples.

Results

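HSP90 and its co-chaperones are described here through peaks of heat shock factor 1 (HSF1) in brown adipose tissue of the mouse (BAT), which burns fat to make heat. The set was chosen by name: 2 cytosolic HSP90 genes, Hsp90aa1 and Hsp90ab1, and 7 co-chaperone genes, Ahsa1, Ahsa2, Stip1, Fkbp4, Ptges3, Cdc37 and Chordc1, which makes 9 of 21883 protein-coding genes. A peak was assigned to a gene when it overlapped the gene's span in GRCm38 (mm10) or 5 kb on either side. The 9 windows held between 6 and 17 peaks per library, and 16 of the 18176 regions that result when the peaks of all libraries are joined.

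The study has 15 samples, of which 10 are HSF1 ChIP-seq libraries in 5 groups of 2 and 5 are inputs, which were not analysed here. Of the groups, 4 are wild type: kept at room temperature (RT), cold for 40 min (pair 1), cold for 4 h, and again cold for 40 min (pair 2, whose titles carry the replicate numbers of pair 1 with a suffix). The other group is labelled TXNIP KO and was also cold for 40 min. The labels give neither strain, age and sex nor the number of animals behind a library, and do not say in which cells Txnip was deleted. Tissue of all groups was fixed with DSG and then formaldehyde, and the same antibody was used throughout. Whether the 2 libraries of a group come from separate animals is not stated.

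The lists hold 919 and 1269 peaks at RT, 2287 and 1670 in pair 1, 123 and 351 at 4 h, 12644 and 14583 in pair 2 and 10399 and 10633 in the knockout. Reads behind them are unknown. Fold enrichment, the signal at a summit over the local background, is the authors' value for each peak and is set side by side between libraries only as a description. With 2 libraries against 2, an exact two-sided permutation test cannot give a p below 0.33, so groups were compared by counts, each beside the share of all genes or regions that met the same rule. The lists check the labels only weakly. Near Txnip, the targeted gene, the strongest peak had folds of none and 4.30 at RT, 5.32 and 5.01 in pair 1, 4.06 and 8.21 at 4 h, 12.9 and 13.9 in pair 2 and 9.96 and 11.0 in the knockout. Summits of the last 4 libraries lay 204 to 275 bp from a gene end, and a peak does not tell whether the gene is intact. Of 7 brown adipocyte markers, 2, 2, 0, 5 and 5 had a peak of both libraries in the 5 groups in the order given above, and of 6 leukocyte markers none had one in any group. The counts were 0, 0, 0, 4 and 3 of 6 general adipocyte markers, 2, 2, 0, 2 and 2 of 5 endothelial markers and 0, 0, 0, 1 and 0 of 7 skeletal muscle markers.

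HSP90 is an ATP-driven chaperone of the cytosol that holds kinases, steroid receptors and other clients in a form ready for activation, and it does so through a cycle run by co-chaperones. Hsp90aa1 encodes the stress-inducible form and Hsp90ab1 the mainly constitutive one. HSF1 is itself held inactive by the chaperone system, HSP90 included, and on release it binds heat shock elements, repeats of the units GAA and TTC in alternating orientation, at chaperone genes.

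The strongest HSF1 peak lay within 1 kb of a gene end in 8 of the 9 genes, in every library that called one. Ahsa1 and Ptges3 had no peak in 4 h replicate 1, and Cdc37 had none within 1 kb in any library. The share of all genes with such a peak was not counted. Promoter sequence from RefSeq (GRCm38.p6), running from 250 bases before to 50 bases after the transcription start, was at hand for 7 of the 9 genes. The promoters printed are those of the 3 genes with at least 2 matched units in a row: Chordc1, with the most complete element, Fkbp4, whose summits differed between conditions, and Cdc37, which has a near match and no peak within 1 kb of a gene end. Capitals mark matches to 3 alternating units, each parted from the next by 2 free bases, with at most 1 of the 9 fixed bases different.
Chordc1 (chr9:18292017-18292316, + strand): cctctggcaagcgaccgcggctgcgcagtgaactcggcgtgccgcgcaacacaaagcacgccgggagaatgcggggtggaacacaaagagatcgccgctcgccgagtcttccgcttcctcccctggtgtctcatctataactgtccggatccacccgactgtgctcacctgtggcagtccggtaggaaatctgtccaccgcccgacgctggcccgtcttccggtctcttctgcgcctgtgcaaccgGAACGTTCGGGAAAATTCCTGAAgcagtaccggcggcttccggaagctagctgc
Fkbp4 (chr6:128438607-128438906, - strand): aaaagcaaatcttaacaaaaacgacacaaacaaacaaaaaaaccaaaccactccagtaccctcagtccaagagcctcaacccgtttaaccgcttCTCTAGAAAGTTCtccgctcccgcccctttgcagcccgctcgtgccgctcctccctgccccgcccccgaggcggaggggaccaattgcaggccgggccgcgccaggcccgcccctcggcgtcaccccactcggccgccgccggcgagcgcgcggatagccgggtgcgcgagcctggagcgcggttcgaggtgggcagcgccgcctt
Cdc37 (chr9:21149885-21150184, - strand): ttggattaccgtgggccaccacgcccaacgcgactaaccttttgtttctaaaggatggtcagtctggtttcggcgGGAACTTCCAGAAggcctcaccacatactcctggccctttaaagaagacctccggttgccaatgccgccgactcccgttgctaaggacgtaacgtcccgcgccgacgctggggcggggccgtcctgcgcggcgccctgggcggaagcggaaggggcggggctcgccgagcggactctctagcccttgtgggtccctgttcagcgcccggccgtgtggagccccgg

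Chordc1 encodes a zinc-binding partner of HSP90, and its promoter holds 5 alternating units in a row with every fixed base matched, so that 3 overlapping matches join into 1 stretch around the start. It was the only one of 21262 promoters of protein-coding genes with 5 units in a row (0.0047%). At least 3 units in a row were found in 0.517% of these promoters, and Chordc1 was the only one of the 7 genes with them. With 1 mismatch allowed, 5 of the 7 had a match (Chordc1, Fkbp4, Ptges3, Ahsa1 and Cdc37), against 6.57% of all promoters. With 2 units and no mismatch, GAANNTTC or TTCNNGAA, 3 of the 7 did (Chordc1, Fkbp4 and Cdc37), against 13.7%. Both strands were searched, and matches of the 2 motif lengths overlap. Of the 55 promoters that overlapped a region called in all 10 libraries, 14.5% held 3 units with no mismatch and 32.7% held 2. The 3-unit form with at most 1 mismatch was held by 34.5% of them.

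In Ptges3 the match lies at chr10:128058876-128058888 on the + strand, 20 bp from the median summit, and in Ahsa1 at chr12:87266741-87266753 on the + strand, 9 bp from it. They are printed to show how far they stand from the run in Chordc1, each with 1 fixed base different.
Ptges3: GAAGGATCGCGAA
Ahsa1: TTCTAGTAGTTTC

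The match of Cdc37 starts at -175 relative to its transcription start. For Stip1 and Ahsa2 none of the 3 forms was found, but their median summits lie 11 and 49 bp outside the printed length of promoter, toward the gene body, as does that of Chordc1 by 9 bp. A match is a run of letters and was not tested as a binding site.

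Both cytosolic HSP90 genes carried the strongest peaks of the group. Hsp90aa1 had folds of 121 and 118 at RT, 179 and 134 in pair 1, 20.4 and 40.0 at 4 h, 555 and 554 in pair 2 and 511 and 476 in the knockout. Its peak stood at rank 4 to 12 of each list. Hsp90ab1 had folds of 121 and 112 at RT, 224 and 208 in pair 1, 22.3 and 43.0 at 4 h, 763 and 771 in pair 2 and 625 and 591 in the knockout. Its ranks ran from 2 to 9. By fold, Hsp90aa1 led the 9 genes in both RT libraries and Hsp90ab1 in the other 8. By -log10 p, an order looked at after the data were seen, Hsp90ab1 led in all 10, so the lead of Hsp90aa1 at RT depends on the measure. At room temperature the folds of the 2 genes overlapped.

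Stip1 (HOP), the adaptor that ties HSP70 to HSP90 and hands clients over, and Fkbp4 (FKBP52), an immunophilin of steroid receptor complexes, came next in 9 libraries, while in RT replicate 2 Ahsa2 stood above both. Fkbp4 had folds of 70.8 and 69.3 at RT, 137 and 118 in pair 1, 17.6 and 30.1 at 4 h, 500.0 and 520 in pair 2 and 415 and 387 in the knockout. Stip1 had 79.4 and 74.0, 117 and 96.3, 9.57 and 19.9, 408 and 436, and 365 and 344 in the same order of groups. Stip1 stood above Fkbp4 in both RT libraries, and Fkbp4 above Stip1 in each of the 8 cold libraries. Between any 2 of RT, pair 1 and 4 h, the folds did not overlap in either gene, nor in Hsp90aa1, Hsp90ab1, Ahsa2 and Chordc1. The share of all regions with such folds was not counted, so whether this is particular to these genes is unknown. List length, which differs in the same order, was not tested as a cause.

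Ahsa1 (AHA1), the activator of the HSP90 ATPase, and its relative Ahsa2 differed from each other. Ahsa2 had folds of 66.5 and 77.3 at RT, 87.0 and 79.3 in pair 1, 7.58 and 12.9 at 4 h, 291 and 306 in pair 2 and 257 and 206 in the knockout. Ahsa1 had 38.6 and 41.0, 73.7 and 55.9, no peak and 9.11, 242 and 268, and 227 and 200 in the same order. Ahsa2 was above Ahsa1 in each of the 9 libraries that called both, and in the knockout the values of the 2 genes overlapped.

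Chordc1 had folds of 51.7 and 46.9 at RT, 86.0 and 76.8 in pair 1, 7.81 and 17.1 at 4 h, 278 and 264 in pair 2 and 273 and 272 in the knockout. Ptges3 (p23), which stabilises the closed, client-bound state of HSP90, had 38.3 and 35.0, 69.3 and 53.2, no peak and 8.57, 204 and 213, and 152 and 142. By fold, Ptges3 was the lowest of the 8 genes in each library where it had a peak. By -log10 p, Ahsa1 was below it at RT, with 208.7 and 270.6 against 279.1 and 318.4. Cdc37, the co-chaperone that brings kinases to HSP90, had no peak in 9 libraries. Replicate 2 of pair 2 called 1 peak in its window, outside the gene, with a fold of 2.92 at rank 13950 of 14583; its summit lay 3779 bp from the end of Tyk2, closer than to Cdc37.

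**Figure D1:**
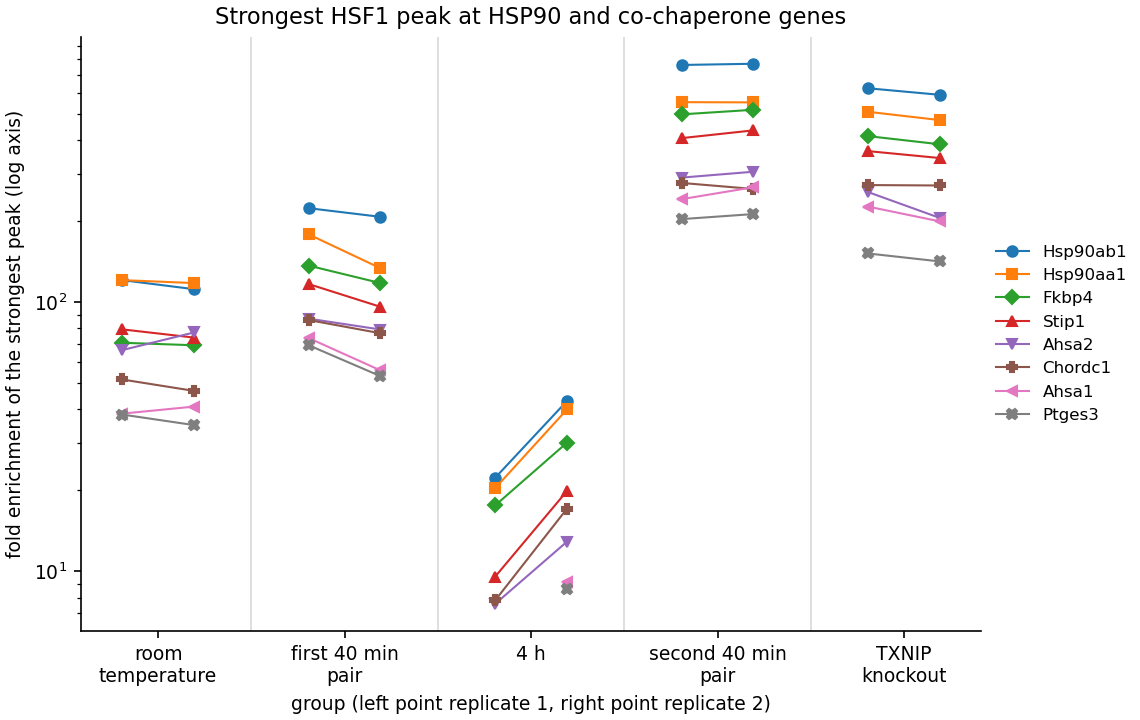
Fold enrichment (log axis) of the strongest HSF1 peak at each of 8 genes in the 10 libraries, with lines joining the replicates of a group. Hsp90ab1 or Hsp90aa1 is highest in each library, Ptges3 lowest where it has a peak, and the replicates at 4 h lie farther apart than those of other groups; Cdc37 is left out, since it had only 1 weak peak.

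Of the 9 genes, 8 had a peak of both libraries at RT, where 2.95% of all genes did, 8 in pair 1 (4.97%), 6 at 4 h (0.466%), 8 in pair 2 (26.6%) and 8 in the knockout (21.0%). The 2 genes missing at 4 h beside Cdc37 were Ahsa1 and Ptges3, both called in replicate 2 and not in replicate 1, the shortest list, so without replicate 1 the count is 8. When each library was held to its 123 strongest peaks, the length of that list, the counts stayed at 8, 8, 6, 8 and 8. The share of all genes was then 0.535%, 0.512%, 0.379%, 0.553% and 0.558%. In pair 2 and the knockout, with the longest lists, the 8 genes ranked between 3 and 57.

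The summit of each gene stayed at nearly the same place in all groups. Over the libraries that called them, summits ranged over 20 bp in Hsp90aa1, 36 bp in Hsp90ab1, 85 bp in Ahsa1, 27 bp in Ahsa2, 33 bp in Stip1, 53 bp in Fkbp4, 44 bp in Ptges3 and 58 bp in Chordc1. For comparison, the median range over the 95 regions called in all 10 libraries was 54 bp. In Hsp90aa1 (chr12:110691036-110696395) the summits lay inside the gene, 12 to 32 bp from its upper end. In Hsp90ab1 (chr17:45567778-45573261) they lay outside it, 625 to 661 bp beyond the upper end and within Gm35399, a long noncoding RNA gene 53 bases away. The strand of these 2 genes is not in the tables used here.

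The other genes with a peak near their start are Ahsa1 (chr12:87266415-87273998), Ahsa2 (chr11:23487882-23498045), Stip1 (chr19:7020696-7040026), Fkbp4 (chr6:128430103-128438656), Ptges3 (chr10:128058982-128077254) and Chordc1 (chr9:18292267-18314000). Their median summit lay 28 bp past the transcription start in Ahsa1, 98 bp in Ahsa2, 60 bp in Stip1 and 58 bp in Chordc1. It lay before the start in Fkbp4 (-174 bp) and in Ptges3 (-80 bp). The transcription start used for Ahsa1, 87266728, lies inside the span given above. Several of these spans lie close to a neighbour, to which the same peak could be assigned. Vipas39 lies 36 bases from the span of Ahsa1, Gm10069 lies 100 bases from Fkbp4, and 1700030C12Rik and Gm51667 overlap Ahsa2 and Chordc1. The Fkbp4 summits of all 10 libraries lay inside Gm10069, a long noncoding RNA gene, 38 to 91 bp from its end. Peaks were widest at Hsp90ab1, from 1870 to 4839 bp, and ranged from 632 to 2781 bp at Hsp90aa1. At each of the 8 genes they were narrowest at 4 h.

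**Figure D2:**
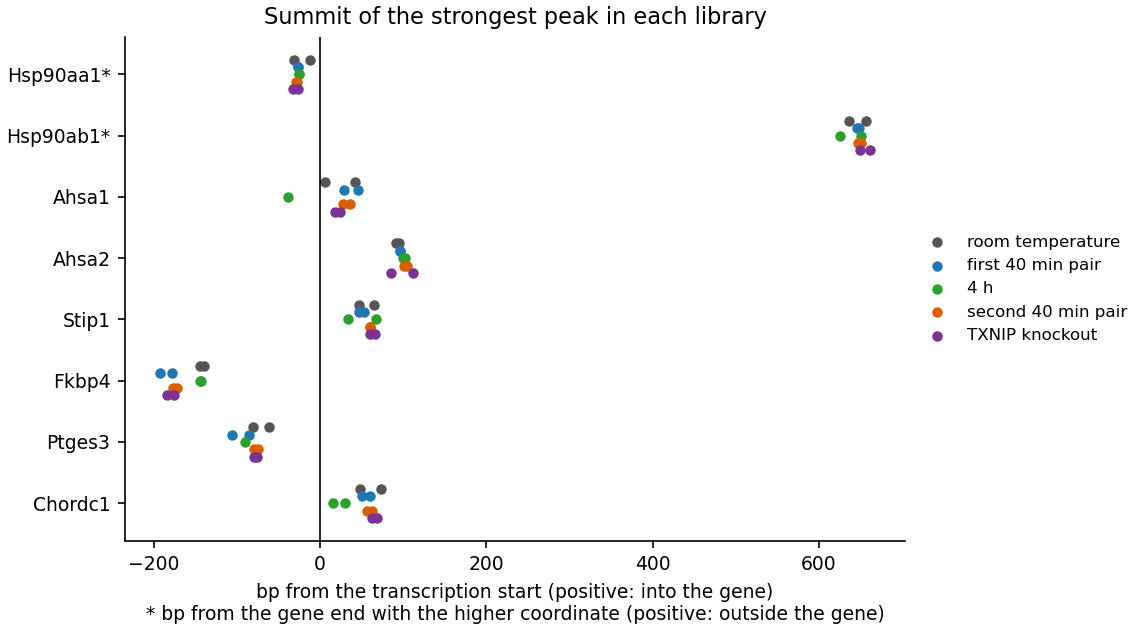
Position of the summit of the strongest peak in each library (points, coloured by group) for 8 genes, in bp from the transcription start, or, for the 2 genes marked with a star, from the gene end with the higher coordinate. Most genes keep within 20 to 60 bp; in Fkbp4 the points of the 6 libraries at 40 min lie farther upstream than those at RT and 4 h, and Ahsa1 has 1 point at 4 h apart from the others.

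In Fkbp4 the summit differed between conditions. It lay 139 and 144 bp before the transcription start at RT and 143 and 145 bp at 4 h. At 40 min it lay 178 and 192 bp before the start in pair 1, 177 and 172 bp in pair 2 and 184 and 176 bp in the knockout. The 4 summits at RT and 4 h are thus within 5 bp of the capitals in the Fkbp4 promoter printed above, while the 6 summits at 40 min lie 16 to 36 bp away, farther from the gene. Between RT and pair 1, summits lay apart in 36.8% of the 95 shared regions and in 2 of 6 regions of these genes (Fkbp4 and, by 1 bp, Ahsa2). Fkbp4 was among 9 regions with a distance as large, 43.5 bp between medians. Between RT and 4 h they lay apart in 35.8% and in 2 of the 6, Ahsa2 and Chordc1. All 4 libraries at RT and 4 h were apart from all 6 at 40 min in 2.11% of the regions, among them that of Fkbp4, with 27 bp between the nearest summits. This last grouping was chosen after the Fkbp4 summits were seen. Fold differs in the same direction, being lower in the 4 libraries than in the 6, and its part in the position was not tested.

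The first comparison asks which peaks 40 min of cold adds to those at RT. The main peaks of the 8 bound genes were called in both groups, and 1 region in the windows was gained while none of 10 was lost. Of all 2582 regions in these 4 libraries 15.8% were gained and 0.194% lost. When RT replicate 1 was left out, 1 counted as lost. The gained region lies beyond the lower end of Hsp90aa1, 8360 and 8388 bp from its upper end, and was called in neither RT library. Its folds were 11.6 and 8.35 in pair 1, with summits at 110688035 and 110688007 on chromosome 12, 3001 and 3029 bp from the gene. The same region had folds of 41.2 and 42.2 in pair 2, 29.1 and 25.9 in the knockout and 7.50 in 4 h replicate 2, and was not called in 4 h replicate 1. It was present in all 6 libraries at 40 min. The RT lists are shorter than all 6, and with the lists of RT and pair 1 held to their 919 strongest peaks, the count gained was again 1, with the region at ranks 583 and 754 in pair 1.

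**Figure D3:**
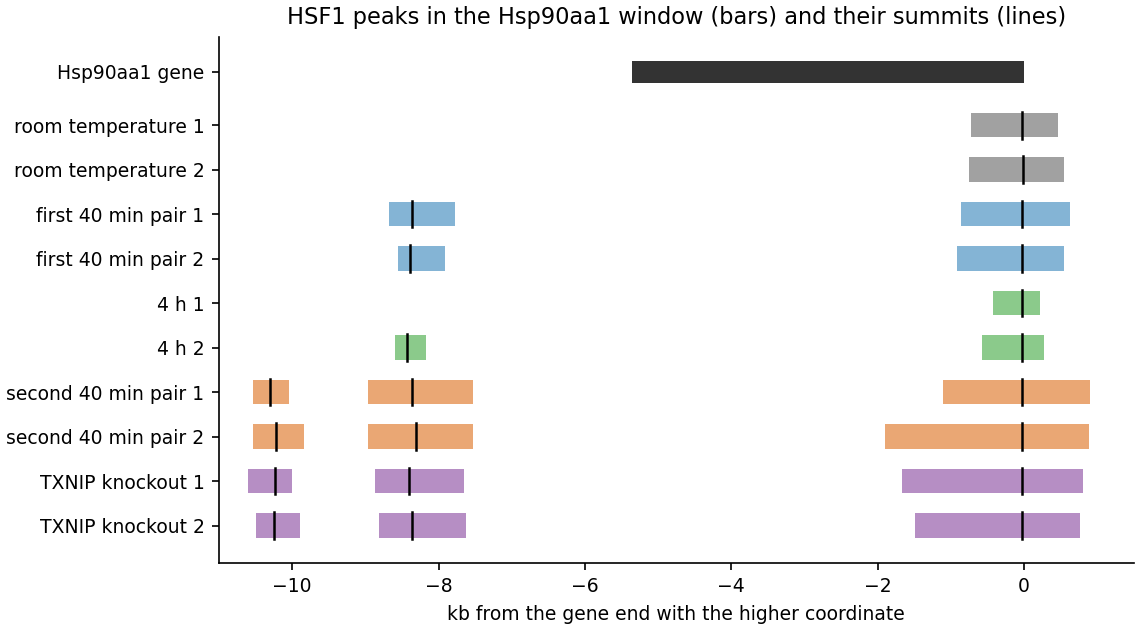
Peaks in the window of Hsp90aa1 in each library (bars, from start to end) with their summits (black lines), in kb from the gene end with the higher coordinate, below the span of the gene. The main peak is present in all 10 libraries, a region beyond the lower gene end in 7, and one still farther out in the second 40 min pair and the knockout only.

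The next comparisons ask what is left at 4 h. No region in the windows was gained or lost between RT and 4 h (0 of 10 in each direction), where 0.21% of all regions were gained and 36.6% lost. Between pair 1 and 4 h none of 9 was gained or lost, against 0.0404% and 46.4%. Ahsa1 and Ptges3 count as neither, since 1 of the 2 libraries at 4 h called them. Without 4 h replicate 2, 2 regions count as lost from RT and 3 from pair 1. Without 4 h replicate 1, 1 counts as gained from RT, and without RT replicate 1, 1 counts as lost. With every list of a comparison held to the length of the shortest, 2 count as lost in both comparisons. For the knockout, none of 16 regions was gained or lost against the second wild type pair (1.1% and 7.36% of all regions). With 1 library of pair 2 left out, whichever it was, 1 was lost. Against pair 1, whose lists are far shorter, 5 were gained, and the share of all regions was not counted there.

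Ranks from lists of different length cannot be compared, so the place by fold was taken among the 95 regions called in all 10 libraries. Of the genes, 6 have such a region, namely Hsp90aa1, Hsp90ab1, Ahsa2, Stip1, Fkbp4 and Chordc1. From RT to pair 1 Hsp90ab1 went from places 6 and 7 to 3 and 2, and Fkbp4 from 13 and 14 to 12 and 12, so 2 of 6 moved up without overlap, as did 25.3% of all shared regions (1 of 6 when ordered by -log10 p). Hsp90aa1 went from 5 and 4 to 6 and 8, and Ahsa2 from 14 and 12 to 22 and 20, so 2 of 6 moved down, against 28.4%. Without RT replicate 2, or without replicate 2 of pair 1, 4 moved down. Hsp90aa1 stood above Hsp90ab1 in both RT libraries and below it in the other 8.

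At 4 h, 3 of the 4 co-chaperones with a shared region stood lower among the shared regions than at RT. Ahsa2 was at places 43 and 54, Chordc1 at 41 and 35 after 20 and 22 at RT, and Stip1 at 26 and 24 after 12 and 13. With Hsp90aa1 (9 and 7), 4 of 6 moved down from RT, where 38.9% of all shared regions did. Fkbp4 (10 and 12) was the only one of the 6 that moved up, where 29.5% did. Ordered by -log10 p none of the 6 moved up, Fkbp4 included, and 5 moved down. From pair 1 to 4 h, 4 of 6 moved down (Hsp90ab1, Ahsa2, Stip1 and Chordc1), against 33.7%, and none moved up, against 34.7% (without 4 h replicate 2, 1 did). Places of regions within 1 list depend on each other, and only 6 genes are counted.

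In the knockout, Chordc1 was at places 22 and 18 and Hsp90aa1 at 6 and 7, against 29 and 30 and 8 and 8 in pair 2. These were 2 of 6 that moved up, where 21.1% of all shared regions did (1 of 6 when ordered by -log10 p), and none moved down, against 23.2% (without replicate 2 of pair 2 or replicate 1 of the knockout, 1 did). Hsp90ab1 stood at place 3 in all 4 of these libraries. Against pair 1, neither Chordc1 (24 and 21 there) nor Hsp90aa1 (6 and 8) stood apart, while Fkbp4 moved up (12 and 12 there, 11 and 11 in the knockout) and Ahsa2 down (22 and 20, then 24 and 28). The share of all shared regions that moved against pair 1 was not counted. The groups differ in list length, and the labels do not tie the knockout to either wild type pair.

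**Figure D4:**
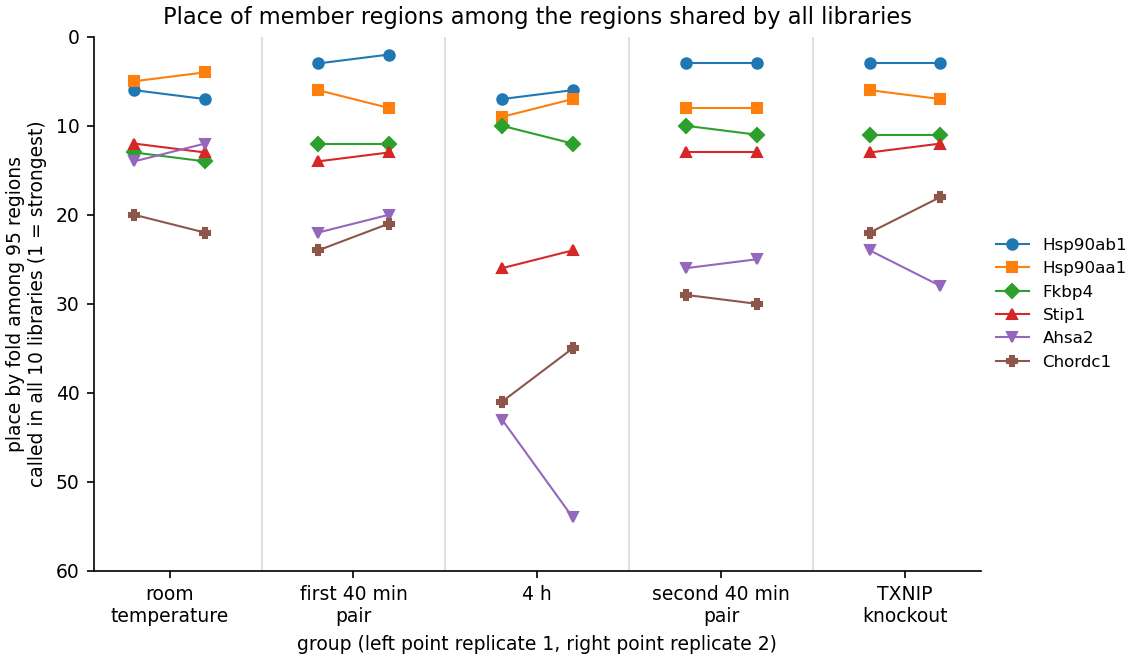
Place by fold among the 95 regions called in all 10 libraries (1 is the strongest, at the top) for the 6 genes with such a region, with lines joining the replicates of a group. Ahsa2, Chordc1 and Stip1 stand lower at 4 h than in any other group, while Fkbp4 stays between 10 and 14.

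Regions with the most similar places were named for each of the 6 genes. Likeness was measured as the mean absolute difference of log2 place over the 10 libraries, and the regions share their libraries. Nearest to Hsp90aa1 was the region at Hsph1, an HSP110 chaperone (0.53), and nearest to Hsp90ab1 that at Dnaja1 (0.53). Hspa1b (0.64) was also near Hsp90aa1, and Uspl1 (0.797) and Hspa8 (0.863) were near Hsp90ab1. The closest to Stip1 were at Hspa1a (0.259), Hspb1 (0.26) and Ubqln1 (0.289), and to Fkbp4 at Hsph1 (0.323), Stip1 itself (0.392) and Hspb1 (0.447). Ahsa2 and Chordc1 were each near Zfand2a (0.346 and 0.286) and near each other (0.346). Ahsa2 was also near a region 59374 bp from Stard13 (0.513), and Chordc1 near one 2597 bp from Ssc4d (0.348).

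Among other HSP90 genes and co-chaperones, most had no peak at RT or 4 h, while 3 of the listed partners on the HSP70 side had strong ones. Hsp90b1, the HSP90 of the endoplasmic reticulum, had folds of 14.3 and 12.1 at RT, 29.2 and 23.4 in pair 1, none and 7.85 at 4 h, 108 and 104 in pair 2 and 96.5 and 79.4 in the knockout. Trap1, its mitochondrial relative, had no peak in any library. Of 27 other co-chaperones and HSP70 partners, 4 were bound in both libraries at RT (2.95% of all genes), 8 in pair 1 (4.97%), 3 at 4 h (0.466%), 17 in pair 2 (26.6%) and 15 in the knockout (21.0%). The 3 at 4 h were St13 (HIP), Hspa8 (HSC70) and Dnaja1 (an HSP40), which act on the HSP70 side of client transfer and stood between rank 2 and 10 of every list. St13 had folds of 126 and 118 at RT, 156 and 154 in pair 1, 44.6 and 78.9 at 4 h, 632 and 623 in pair 2 and 510 and 538 in the knockout. By rank St13 stood above Hsp90aa1 in both libraries at RT, at 4 h and in pair 2. In pair 1 and the knockout it stood above in replicate 2 and below in replicate 1. The folds of St13 and Hsp90aa1 overlapped at RT, in pair 1 and in the knockout. Ppid (cyclophilin 40) was the fourth at RT, with folds of 11.9 and 11.5. Nudc had 11.6 and 5.84 in pair 1, with its summit 195 and 130 bp from a gene end. The peaks of Unc45b, Fkbp8 and Fnip2 there were 2700 to 9108 bp from the ends of these genes. Of 18 clients and partners of HSP90, among them steroid receptors and kinases, none was bound in both libraries at RT, in pair 1 or at 4 h, 12 in pair 2 and 8 in the knockout, beside the shares of 26.6% and 21.0% of all genes. Gene length was not matched in these shares. Akt1 had a peak in 1 library of each of the first 3 groups. Its folds were 11.7 in RT replicate 2, 4.59 in replicate 1 of pair 1 and 21.8 in 4 h replicate 1 (rank 11 of 123).

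Weaker peaks in the windows came mainly from the long lists, and many belong to neighbours. The lower end of Slc35b2, next to Hsp90ab1, had a peak in RT replicate 2 (fold 5.27) and in the 4 libraries of pair 2 and the knockout (10.9 to 14.5). Inside Fkbp4, 2992 to 3092 bp from its start, these same 4 libraries called a peak with folds of 6.12 to 8.71. Ahsa1, Ahsa2, Stip1, Ptges3 and Chordc1 had no second peak in any library.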

How the data were processed

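HSF1 ChIP-seq of BAT was analysed from 10 lists of narrow peaks that the authors deposited, 1 per library and not pooled. The submitters' processing notes name MACS2 2.2.7.1, BWA 0.7.17, deepTools 3.4.3, Trim Galore 0.6.0 and SAMtools, and the build GRCm38.p6 (mm10). Not given in the sources used here are filters, duplicate removal and the input behind each fold. Per the labels' protocols, fixation used DSG (2 mM, 25 min) and then formaldehyde (0.8%, 12 min). The deposited columns hold a fold enrichment (a linear ratio), p-values and q-values as −log10, a summit offset and a whole-number score, which was not used. The lists hold no counts, so depth and its precision are unknown.

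Chromosomes 1 to 19, X and Y were kept, and positions are 1-based. Genes and promoters came from RefSeq tables of the same build, in which 9 of 9 genes and 7 of 9 promoters matched. Peaks overlapping by 1 bp were joined into regions. Gained regions were called by both libraries of the later or knockout group and neither of the earlier or control group, and lost regions the reverse. A gene moved in order when its places in both libraries of a group lay beyond both of the other. Functions were tested on simulated lists with pandas 2.3.3 and numpy 2.4.6. The genes, lists and rules were chosen with earlier results of these data known. Named beside the 9 genes are listed HSP90 genes and partners with a peak of both libraries at RT, in pair 1 or at 4 h (at most 10 per list), the 3 regions closest in place, and Txnip; 1 of these regions is not reported here. One input whose title and treatment label differ was placed in no group. Alternatives are given in the closing section.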

Additional observations from a re-analysis of the deposited data

How the results depend on the processing

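The counts of bound genes kept within 1.5 times their value under windows of 1 kb and 10 kb, summits in place of overlap, a −log10 q of at least 5, the strongest peaks alone and each left-out library. With lists held to the shortest, 2 regions were lost at 4 h against RT and 2 against pair 1. Leaving out 1 library, between 0 and 1 region was lost from RT to pair 1, 0 to 1 gained and 0 to 2 lost from RT to 4 h, 0 to 3 lost from pair 1 to 4 h, and 0 to 1 lost in the knockout. In the same way 2 to 4 genes moved down in order from RT to 40 min, 0 to 1 moved up from 40 min to 4 h, and 0 to 1 moved down in the knockout. Ordered by −log10 p, 1 gene moved up at 40 min, 0 at 4 h and 1 in the knockout. Among regions called in all 4 libraries of the comparison, 1 moved down in the knockout. With pair 1 as control of the knockout, 5 regions were gained, 1 gene moved up and 1 down. The shares of all regions were not counted for that control. A heat shock element of 2 units was found in 3 promoters and one of 3 units with 1 mismatch in 5, against 1 for 3 units. The cause of these changes was not tested. No paired analysis was possible because the labels do not pair libraries of different groups, and the results are counts of peaks with no test. Depth is unknown, so an absent peak, as at Cdc37, was not detectable in these lists rather than shown to be missing.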
